A study of Sus scrofa with 92 samples.

Results

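AMP-activated kinase (AMPK) is the fuel gauge of the cell, and the liver carries it as a complex of 3 subunits: a catalytic α subunit, a scaffold β subunit and a γ subunit that binds adenine nucleotides. The members described here are the subunit genes PRKAG2 (γ2), PRKAG1 (γ1), PRKAA1 (α1), PRKAA2 (α2), PRKAB1 (β1) and PRKAB2 (β2), together with STK11, which encodes LKB1, the kinase that phosphorylates the α subunit in liver. They were selected on earlier results of the same libraries, PRKAG2 by its decrease from Baseline in nearly every fasted animal, and matched by symbol to pig Ensembl identifiers. Of the 7 listed genes, 6 have a row among the 25322 identifiers of the count table, and PRKAA2 was not analysed here. PRKAG2 is ENSSSCG00000016432, PRKAG1 is ENSSSCG00000000185, PRKAA1 is ENSSSCG00000024598, PRKAB1 is ENSSSCG00000009840, PRKAB2 is ENSSSCG00000006703 and STK11 is ENSSSCG00000013429. All 6 passed the filter on low counts. No coordinates are given, since the table was counted on Sscrofa10.2 and no annotation of that build was used here.

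When energy runs low, AMP and ADP displace ATP on the γ subunit, and LKB1 keeps the α subunit phosphorylated. The active kinase then slows fatty acid, cholesterol and glycogen synthesis and favors fuel breakdown and autophagy. These steps act on protein, and the counts here are mRNA only, so they say nothing of the activity of the kinase.

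The libraries were made from liver biopsies of male Yorkshire-Landrace pigs that were fasted overnight, splenectomized, and subjected to a blunt chest injury, hemorrhage and a liver crush injury followed by resuscitation. The 18 fasted (FS) animals received nothing more, whereas the 5 carbohydrate prefed (CPF) animals were given a bolus of sugar syrup an hour before induction. Each animal was biopsied at Baseline (B), after instrumentation and before the injury, and after 2, 8 and 20 hours of full resuscitation (FR2, FR8, FR20). There were no uninjured animals, so the time after injury, the repeated biopsies and the injury itself cannot be told apart, and the biopsies came from the edge of an organ that had been crushed elsewhere. By the labels 3 FS and 2 CPF animals died. Animals are numbered 1 to 23 across both groups.

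Values are CPM, read counts on a gene relative to the TMM-scaled total of the library, in 88 libraries, whose totals were 6877117 to 16613261 counts. Left out were the FR8 library of CPF animal 3, which holds 4388 counts, and the Baseline libraries of FS animals 17, 19 and 21, in which albumin had 4, 899 and 5 counts against at least 170443 in each of the 88. Baseline thus rests on 15 FS animals. Set against the liver label, 9 of 10 hepatocyte markers were measured, of which ALB, TTR and AHSG had at least 5191 counts in each of the 88, while APOA1 was at 0 in 2 libraries and FGB in 1. The 4 measured striated muscle markers together were at 86.0 CPM or less.

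Some libraries went against their time label. When each was correlated, over 8108 genes other than the members, with the mean of the other libraries of each time point, 68 of 88 were nearest their own time and 20 were nearest another. In 12 libraries of 5 animals another time point gave a correlation at least 0.5 higher than the labelled one. The libraries labelled FR8 of FS animals 17, 19 and 21 were nearest Baseline (r = 0.80, 0.57 and 0.82, against −0.56, −0.35 and −0.59 with FR8), and those labelled FR20 were nearest FR2. Their libraries labelled FR2 were nearest FR8 (r = 0.57, 0.34 and 0.64, against −0.03, 0.10 and −0.18 with FR2). In FS animal 10 the library labelled B was nearest FR8 (r = 0.60 against −0.46), that labelled FR2 was nearest FR20 and that labelled FR8 was nearest FR2, and in CPF animal 13 the library labelled FR20 was nearest Baseline (r = 0.65 against −0.33). In animals 17, 19 and 21 the 3 labels were thus displaced in the same order. Whether the labels of these animals are exchanged was not tested, and if they are, the time given for each of their values is not the time of the biopsy. In FS animal 9 the gaps were under 0.5, but its library labelled FR8 was nearest FR20 (r = 0.49 against 0.04). Its library labelled FR20 was nearest FR8 (r = 0.33 against −0.03), and whether these 2 are exchanged was not tested either. All libraries were kept under their labels, and results are also given without animals 10, 13, 17, 19 and 21 (71 libraries, which still hold animal 9). That choice was made after seeing the data, and leaving out animals whose profiles do not resemble their group favors differences between times.

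PRKAG2, the γ2 subunit known for the inherited heart muscle disease its variants cause, was lower after injury in nearly all FS animals. In FS livers the level of PRKAG2 was 14.4 CPM at the lowest, 27.2 at the median and 34.5 at the highest at Baseline. It was 6.90, 14.9 and 22.6 CPM at FR2, 7.73, 12.1 and 34.4 CPM at FR8, and 9.26, 16.6 and 21.04 CPM at FR20. Each of the 18 libraries at FR2 and at FR20 was under the Baseline median, as were 16 of 18 at FR8, but the ranges overlapped at each time. The highest libraries labelled FR8 were those of animals 21 and 17 (34.4 and 34.2 CPM), followed by animal 19 (26.7 CPM), and the lowest Baseline library was that of animal 10. Without the animals that stand apart the lowest Baseline was 19.5 CPM. The FR8 libraries then had a median of 11.3 and a highest value of 24.5 CPM, that of animal 9.

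**Figure D1:**
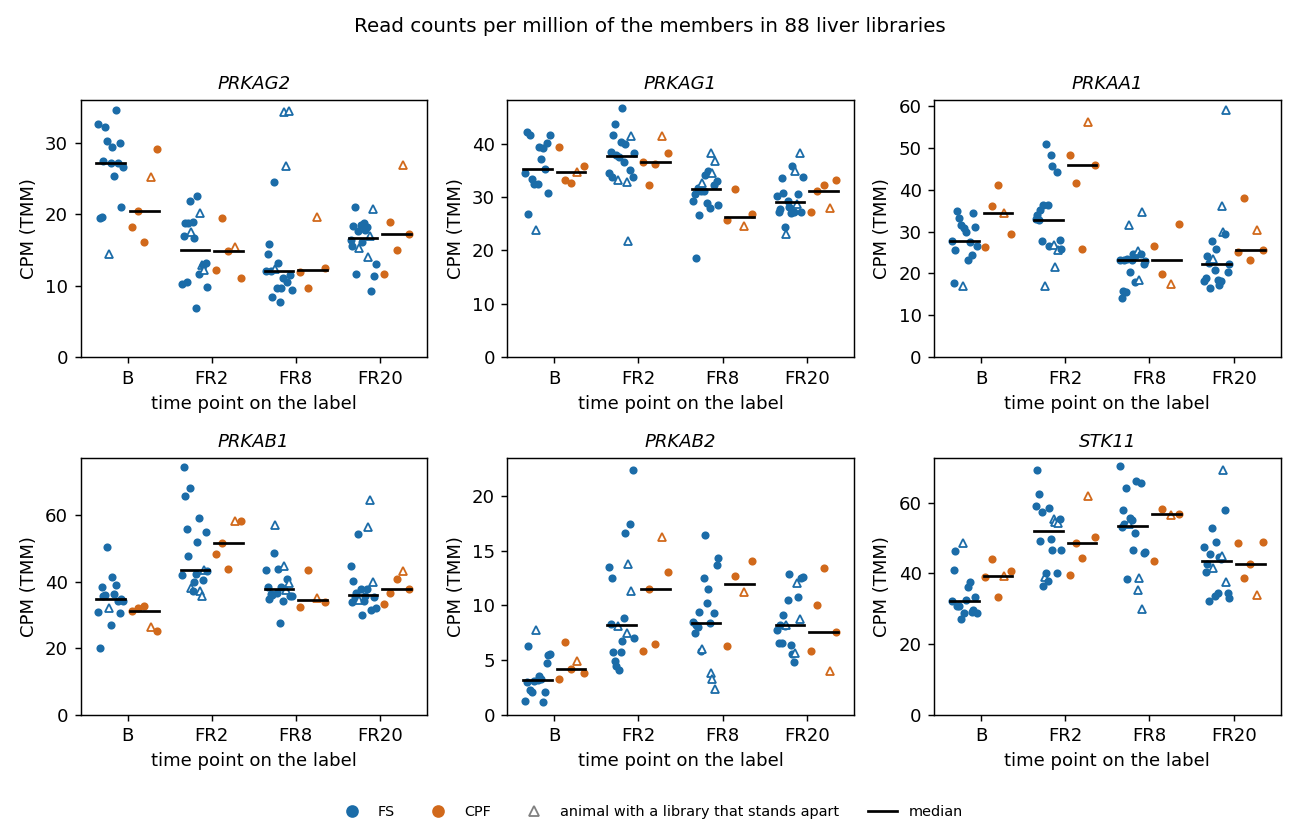
Level of each member in 88 liver libraries, in CPM after TMM scaling (vertical axis, from 0), by the time point on the label (horizontal axis), for FS (blue) and CPF (orange). Points are libraries, black bars are medians, and open triangles mark the 5 animals with a library that stands apart. PRKAG2 sits lower and PRKAB2 higher after Baseline, and the FR8 triangles of FS animals 17, 19 and 21 lie against that pattern.

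Set against the same animal's Baseline, PRKAG2 was lower in 14 of 15 FS animals at FR2, in 15 of 15 at FR8 and in 14 of 15 at FR20. The within-animal changes on the log2 scale had medians of −0.77, −1.28 and −0.77. They ran from −1.85 to 0.28 at FR2, from −1.91 to −0.22 at FR8 and from −1.68 to 0.08 at FR20, and the highest value at each time was that of animal 10. The fitted log2 fold changes were −0.92 ± 0.15 (SE) at FR2, −0.98 ± 0.15 at FR8 and −0.81 ± 0.15 at FR20. The fitted level was thus 0.527 of Baseline at FR2, 0.506 at FR8 and 0.570 at FR20. Without the animals that stand apart they were −0.91 ± 0.13, −1.21 ± 0.13 and −0.79 ± 0.13, and the decrease was seen in 14 of 14 animals at each time. These FS changes are the values on which PRKAG2 was chosen, so they are a description and carry no test.

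**Figure D2:**
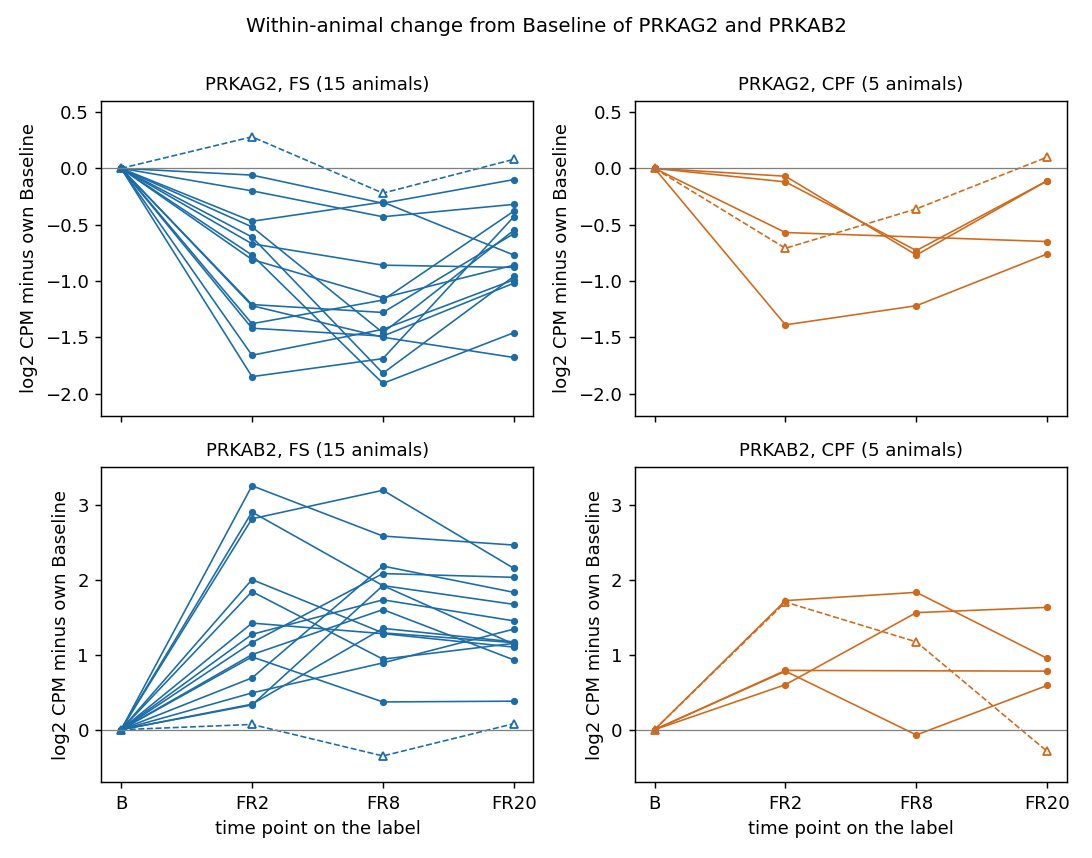
Change of PRKAG2 (top) and PRKAB2 (bottom) from the same animal's Baseline, in log2 CPM (vertical axis), by labelled time point (horizontal axis), for 15 FS animals (left) and 5 CPF animals (right). Each line is an animal, and dashed lines with triangles are animals 10 and 13. In FS, PRKAG2 lines run below 0 and PRKAB2 lines above it, apart from animal 10, which stays near 0.

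Over the 8 groups of fed state and time, the order of the PRKAG2 medians ran from FS Baseline (27.2 CPM) and CPF Baseline (20.4) through CPF FR20 (17.2), FS FR20 (16.6), FS FR2 (14.9), CPF FR2 (14.8) and CPF FR8 (12.2) to FS FR8 (12.1). The ranges of every pair of neighbors in this order overlapped.

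The hepatocyte markers also moved with time. Their sum over 9 of 10 listed genes was 109500 to 208300 CPM in FS livers at Baseline (median 184400), 77930 to 160600 at FR2 (147100), 74420 to 180700 at FR8 (104500) and 43500 to 147000 at FR20 (74300). Albumin (ALB) made up a large part of this sum. Its own medians were 120756 CPM at Baseline, 87376 at FR2, 50059 at FR8 and 33634 at FR20. The 5 neutrophil markers together had a median of 0.884 CPM (0 to 15.3) at Baseline and 13.6 (3.62 to 70.1) at FR2, with CSF3R at 0 in all 88 libraries. Fewer cells of a type and less RNA per cell cannot be told apart in whole biopsies, and the part of cell composition in the members' changes was not tested.

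In FS livers PRKAG1 stayed nearer its Baseline than PRKAG2. PRKAG1, the γ1 subunit found in most tissues, was 23.7, 35.2 and 42.1 CPM (lowest, median, highest) in FS livers at Baseline and 21.8, 37.8 and 46.7 at FR2. It was 18.5, 31.4 and 38.3 CPM at FR8 and 23.1, 29.0 and 38.3 at FR20. The fitted log2 fold changes from Baseline in FS were 0.06 ± 0.07, −0.19 ± 0.07 and −0.25 ± 0.07, and PRKAG1 was lower than Baseline in 13 of 15 animals at FR8 and 14 of 15 at FR20. PRKAG3 (ENSSSCG00000016200), the γ3 subunit of fast muscle, had 0 to 9 counts per library in all 88, and no fold is given for it.

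The catalytic subunit PRKAA1 was 17.1, 27.7 and 35.1 CPM in FS livers at Baseline, 16.9, 32.9 and 51.1 at FR2, 14.1, 23.2 and 34.7 at FR8, and 16.5, 22.4 and 59.2 at FR20. The groups overlapped throughout. Its highest FR20 values, 59.2 and 36.2 CPM, came from animals 21 and 17, which both stand apart. Without the animals that stand apart the highest was 29.5 CPM. The log2 fold changes from Baseline were 0.22 ± 0.13 at FR2, −0.35 ± 0.13 at FR8 and −0.24 ± 0.13 at FR20. Without the 5 animals that stand apart they were 0.34 ± 0.10, −0.44 ± 0.10 and −0.42 ± 0.10, a higher level at FR2 and a lower level later.

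Of the scaffold subunits, PRKAB2 stood higher than Baseline at all 3 times and PRKAB1 mainly at FR2. PRKAB2, the β2 subunit, was 1.11, 3.19 and 7.73 CPM (7 to 120 counts) in FS livers at Baseline, 4.05, 8.20 and 22.4 at FR2, 2.38, 8.39 and 16.4 at FR8, and 4.82, 8.19 and 12.9 at FR20. Each of the 18 libraries at FR2 and FR20 exceeded the Baseline median, as did 17 of 18 at FR8, and 10, 12 and 11 libraries exceeded the highest Baseline at FR2, FR8 and FR20. The 3 lowest libraries labelled FR8 were again those of animals 21, 19 and 17 (2.38, 3.25 and 3.84 CPM). Within animals PRKAB2 was higher than Baseline in 15 of 15 at FR2, 14 of 15 at FR8 and 15 of 15 at FR20. The fitted log2 fold changes were 1.51 ± 0.23, 1.36 ± 0.22 and 1.34 ± 0.22, which is 2.85, 2.56 and 2.53 times Baseline. Without the animals that stand apart they were 1.54 ± 0.21, 1.65 ± 0.21 and 1.40 ± 0.21. With the 3 Baseline libraries that lack albumin put back (91 libraries) they were 0.75 ± 0.29, 0.71 ± 0.30 and 0.61 ± 0.29.

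PRKAB1, the β1 subunit, was 20.2, 35.0 and 50.3 CPM in FS livers at Baseline and 35.9, 43.4 and 74.6 at FR2, where all 18 libraries exceeded the Baseline median. It was 27.7, 37.9 and 57.0 CPM at FR8 and 29.9, 36.1 and 64.6 at FR20. The log2 fold changes were 0.47 ± 0.10, 0.17 ± 0.10 and 0.17 ± 0.10, the largest of them at FR2. Within animals PRKAB1 was higher than Baseline in 14 of 15 at FR2, with a median change of 0.44, and in 10 of 15 at FR8 and at FR20, with a median change of 0.04 at both.

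STK11 was 27.2, 32.3 and 48.6 CPM in FS livers at Baseline, 36.5, 51.9 and 69.1 at FR2, 29.9, 53.5 and 70.5 at FR8, and 32.0, 43.4 and 69.1 at FR20. All 18 libraries at FR2 and 17 of 18 at FR8 and at FR20 exceeded the Baseline median. The log2 fold changes were 0.58 ± 0.10, 0.60 ± 0.10 and 0.36 ± 0.10, with higher values than Baseline in 14, 15 and 11 of 15 animals. The lowest library labelled FR8 was that of animal 21.

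**Figure D3:**
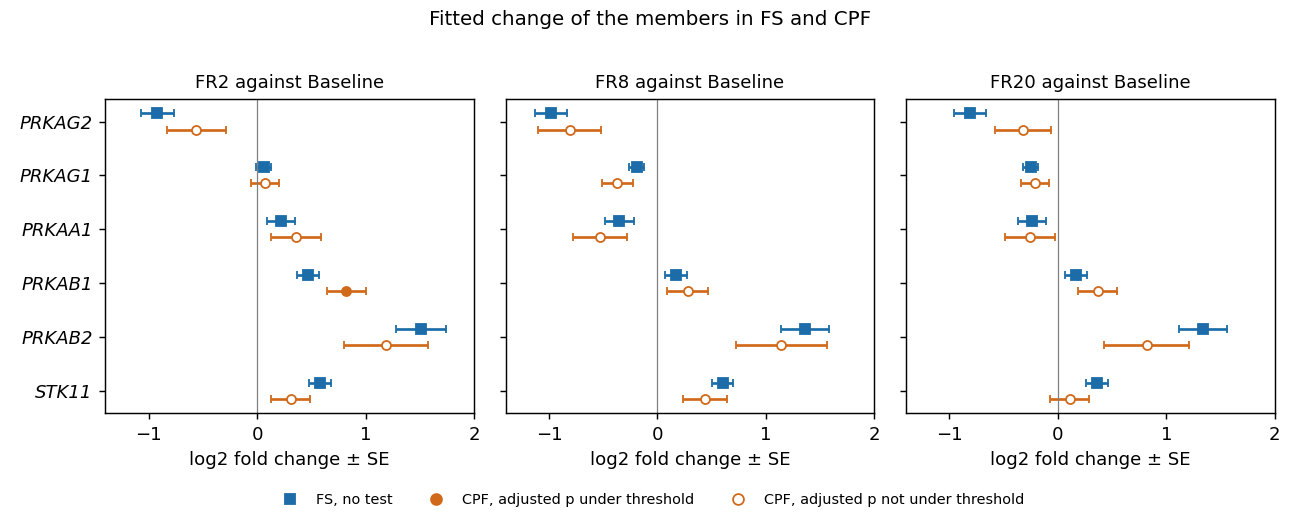
Fitted log2 fold change from Baseline (horizontal axis) of each member (vertical axis) at FR2, FR8 and FR20, with bars of 1 SE, in FS (squares, no test) and CPF (circles, filled where the adjusted p is under 0.05). In FS, PRKAG2 lies between −0.98 and −0.81 and PRKAB2 between 1.34 and 1.51, and the only filled circle is PRKAB1 at FR2.

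Ratios of counts within a library do not depend on the scaling of libraries, and these were chosen after the values were seen. The count of PRKAG2 over that of PRKAG1 had a median of 0.745 (0.463 to 0.965) in FS livers at Baseline, 0.422 (0.148 to 0.618) at FR2, 0.382 (0.268 to 0.935) at FR8 and 0.574 (0.303 to 0.722) at FR20. It was lower than the animal's own Baseline in 15, 13 and 12 of 15 FS animals. The median count of PRKAB2 over PRKAB1 was 0.0895 (0.0284 to 0.240) at Baseline, 0.180 (0.0645 to 0.429) at FR2, 0.231 (0.0602 to 0.402) at FR8 and 0.200 (0.0990 to 0.430) at FR20, and was higher than the own Baseline in 12, 14 and 14 of 15. The first ratio in FS holds the values that chose PRKAG2 and so restates that choice. In CPF livers its median was 0.618 at Baseline, 0.370 at FR2, 0.465 at FR8 and 0.519 at FR20, lower than the own Baseline in 5 of 5, 3 of 4 and 4 of 5 animals. The count of PRKAB2 over PRKAB1 in CPF was higher than the own Baseline in 5 of 5, 3 of 4 and 4 of 5. Transcript length was not used, so a ratio says how a pair shifted and not which transcript was more abundant.

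**Figure D4:**
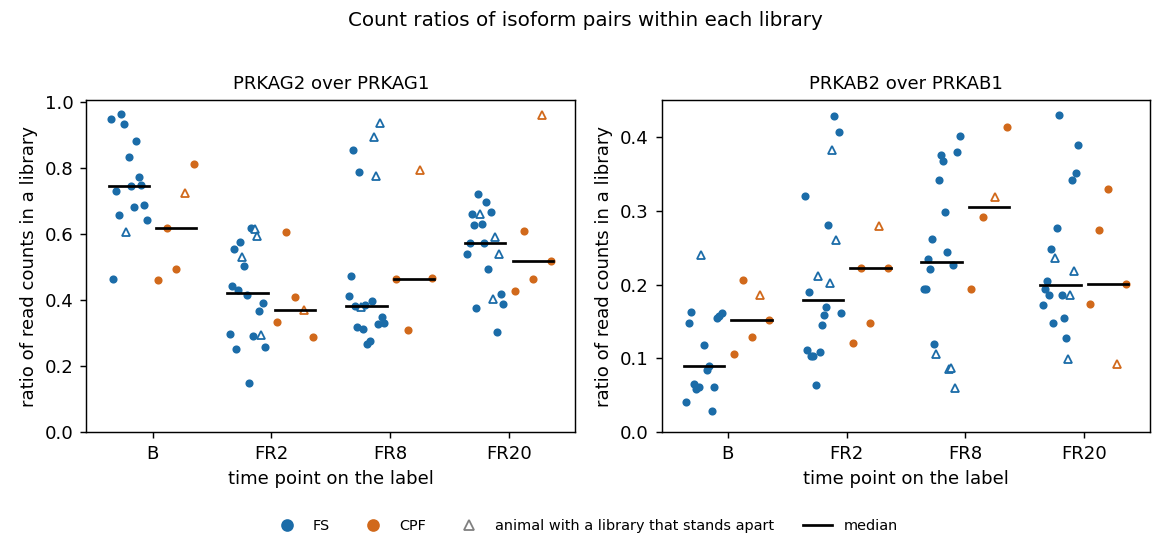
Ratio of read counts of PRKAG2 to PRKAG1 (left) and of PRKAB2 to PRKAB1 (right) within each library (vertical axis, from 0), by labelled time point (horizontal axis). Points are libraries of FS (blue) and CPF (orange), bars are medians, and triangles are animals with a library that stands apart. The FS medians of the left ratio go from 0.745 at Baseline to 0.382 at FR8, and those of the right ratio from 0.0895 to 0.231.

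Across the 88 libraries, with each animal's mean removed, PRKAG2 varied opposite to STK11 (r = −0.79) and PRKAB2 (r = −0.78), and PRKAB2 varied with STK11 (r = 0.71). PRKAG1 and PRKAA1 varied together more weakly (r = 0.53). Among 6343 other genes with a symbol and a mean of at least 5 CPM, the patterns most like that of PRKAG2 were those of MAP2K6 (r = 0.86), which encodes a stress kinase, PDK2 (0.85), an inhibitor of pyruvate dehydrogenase, DYRK1B (0.85), a protein kinase, MBTD1 (0.84), a chromatin protein, and SLA-DMB (0.84), a class II antigen loading protein. PDK2 had medians of 128 CPM at Baseline, 48.7 at FR2, 28.2 at FR8 and 66.5 at FR20 in FS livers. The libraries share time points and scaling, so these correlations are descriptions.

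The CPF animals were not used in the choice of PRKAG2, so their changes could be tested. PRKAG2 in animals 3, 7, 8, 13 and 18 was 18.2, 20.4, 16.1, 25.1 and 29.1 CPM at Baseline and 12.2, 19.5, 14.8, 15.3 and 11.02 at FR2. At FR8 it was 11.96, 9.66, 19.6 and 12.4 CPM in animals 7, 8, 13 and 18, and at FR20 it was 11.6, 18.95, 14.9, 26.9 and 17.2 CPM in all 5 animals. It was thus lower than Baseline in 5 of 5 animals at FR2, 4 of 4 at FR8 and 4 of 5 at FR20. The log2 fold changes were −0.56 ± 0.27, −0.81 ± 0.29 and −0.32 ± 0.26, and none passed the threshold (edgeR quasi-likelihood test, adjusted p = 0.222, 0.0502 and 0.586). The FR8 change was near the threshold: it passed with DESeq2 (adjusted p = 0.0333), edgeR's likelihood ratio test (0.0434) and filterByExpr (0.0468), and did not with no animal terms (0.137), 91 libraries (0.113), no filter (0.0628), a summed CPM of at least 3 (0.0513) or RLE scaling (0.0510). Without animal 13 and the 4 FS animals that stand apart it was −0.97 ± 0.28 (adjusted p = 0.0107).

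PRKAB1 rose in CPF livers at FR2, from 31.2, 32.0, 32.6, 26.3 and 25.3 CPM at Baseline in animals 3, 7, 8, 13 and 18 to 48.4, 51.6, 43.8, 58.2 and 58.4 CPM. The 2 groups of 5 libraries did not overlap, and how many of all genes separate in this way was not counted. The log2 fold change was 0.82 ± 0.18 (edgeR, adjusted p = 0.00731) and 0.74 ± 0.17 without the animals that stand apart (adjusted p = 0.00517). It was the only 1 of 6 members past the threshold at FR2 in CPF, where 3.41% of 13667 genes tested passed. The call was lost when animal 13 or animal 18 alone was left out, with log2 fold changes of 0.71 or more.

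PRKAB2 in CPF livers was 3.30, 6.62, 4.21, 4.89 and 3.85 CPM at Baseline in animals 3, 7, 8, 13 and 18, and 5.83, 11.5, 6.47, 16.3 and 13.03 at FR2. The log2 fold changes were 1.19 ± 0.39 at FR2, 1.14 ± 0.42 at FR8 and 0.82 ± 0.39 at FR20, with adjusted p = 0.0695, 0.0575 and 0.277 (edgeR). At FR2 it was higher than Baseline in 5 of 5 animals. PRKAB2 passed at FR2 and FR8 with DESeq2 (adjusted p = 0.0368 and 0.0352) and with the likelihood ratio test (0.0452 and 0.0426), and over the alternatives other than leaving out 1 animal its adjusted p ran from 0.0368 to 0.2775 at FR2 and from 0.0352 to 0.232 at FR8.

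At FR8 in CPF 0 of 6 members passed with edgeR's quasi-likelihood test, where 13.3% of genes tested passed. At an unadjusted p under 0.05 there were 5 members, where 3878 of 13667 genes tested were under it. DESeq2 called 3 members and edgeR's likelihood ratio test 2. The share of all genes that these 2 tools called was not counted. At FR20 in CPF 0 of 6 passed, where 0.893% of genes tested passed, and 0 passed by either other tool. At an unadjusted p under 0.05 there were 2 members, where 2249 of 13667 genes tested were under it. For PRKAG1, PRKAA1 and STK11 the log2 fold changes in CPF were 0.07, 0.36 and 0.31 at FR2, −0.37, −0.53 and 0.44 at FR8 and −0.21, −0.26 and 0.11 at FR20, with adjusted p from 0.0616 upward.

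The CPF change minus the FS change of PRKAG2 was 0.36 ± 0.30 on the log2 scale at FR2, 0.17 ± 0.32 at FR8 and 0.49 ± 0.30 at FR20. For PRKAB2 it was −0.32 ± 0.45, −0.22 ± 0.47 and −0.52 ± 0.45. These differences rest partly on the FS changes that chose PRKAG2 and were not tested, and their errors are of the same order as the differences.

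Within FS livers after injury, PRKAG2 aside, 3 members fell from FR2 to FR8. Of all genes tested 13.9% were called lower and 28.4% in either direction. PRKAA1 fell by 0.57 ± 0.12 on the log2 scale (edgeR, adjusted p = 0.000457), PRKAB1 by 0.30 ± 0.09 (adjusted p = 0.0107) and PRKAG1 by 0.25 ± 0.07 (adjusted p = 0.00339). Without the animals that stand apart the same 3 were −0.77 ± 0.10, −0.44 ± 0.09 and −0.37 ± 0.06 and passed. PRKAB2 and STK11 differed by −0.15 ± 0.20 and 0.02 ± 0.10 between FR2 and FR8 and did not pass. PRKAG2, chosen on these FS libraries, differed by −0.06 ± 0.14, a description that is not counted either way.

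From FR8 to FR20 in FS livers, PRKAG2 again aside, 0 members passed (edgeR's quasi-likelihood test), where 6.39% of genes tested passed. DESeq2 and the likelihood ratio test also called 0. At an unadjusted p under 0.05 there was 1 member, where 2962 of 13667 genes tested were under it. Without the animals that stand apart STK11 passed, where 24.9% of genes tested did, and such an exclusion favors differences between times. STK11 was then −0.37 ± 0.09 (adjusted p = 0.00137), against −0.24 ± 0.10 with all animals, and it also passed without animal 9 alone (−0.29) or animal 19 alone (−0.30). PRKAG2, which was chosen on these FS libraries, was 0.42 ± 0.13 against 0.17 ± 0.14, given without a p and not counted as a call for that reason.

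At no time point did a member differ between CPF and FS by this test. At Baseline the CPF minus FS log2 differences of the 6 members ran from −0.28 to 0.33, the smallest adjusted p was 0.692, and 0.0342% of 11688 genes tested passed. At FR2 they ran from −0.05 to 0.40 (smallest adjusted p = 0.916), at FR8 from −0.21 to 0.32 (0.959) and at FR20 from −0.10 to 0.18 (0.9997), and 0% of genes tested passed at each of these 3 times. With edgeR's quasi-likelihood test, its likelihood ratio test and DESeq2 alike, 0 of 6 passed, and 0 had an unadjusted p under 0.05. Over all genes tested 895 of 11688 were under it at Baseline and 664 of 11892 at FR2. At FR8 617 of 11951 were, and at FR20 400 of 12307. PRKAG2 differed by −0.28 ± 0.18 at Baseline, where CPF was the lower group. Its comparisons hold FS values on which it was chosen, so for PRKAG2 they are a description and no independent test. PRKAA1 differed by 0.28 ± 0.15 at Baseline and 0.40 ± 0.20 at FR2, where CPF was the higher group.

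The same held for the 5 animals that died against those that lived. With a term for fed state, 0 of 6 members passed at any of the 4 times by edgeR's quasi-likelihood test, its likelihood ratio test or DESeq2, 0 had an unadjusted p under 0.05, and 0% of genes tested passed. Over all genes tested 998, 656, 265 and 642 had an unadjusted p under 0.05 at Baseline, FR2, FR8 and FR20. The widest difference was that of PRKAG2 at FR8, −0.47 ± 0.35 on the log2 scale in the animals that died, and it was −0.05 ± 0.24 without the animals that stand apart. PRKAB2 at FR2 differed by 0.33 ± 0.33.

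The pathway around the complex was read from 5 lists of genes and PRKAG3, 51 genes tested in all. In FS livers 26 of 51 genes tested passed at FR2 (51.0%, against 41.4% of all genes), 25 at FR8 (49.0% against 39.3%) and 23 at FR20 (45.1% against 33.8%). Of these, 15 rose and 11 fell at FR2, 9 rose and 16 fell at FR8, and 9 rose and 14 fell at FR20, and PRKAG3, with its 0 to 9 counts per library, is 1 of those counted as lower at FR8 and at FR20. The median log2 fold change of the 51 was −0.14, −0.29 and −0.15, against −0.04, 0.00 and 0.04 over all genes. Without the animals that stand apart 34, 34 and 28 passed, where 51.3%, 53.7% and 44.8% of all genes did.

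Among the 22 genes of kinase substrates, 9 passed at FR2 (6 higher, 3 lower), 10 at FR8 (3 higher, 7 lower) and 11 at FR20 (4 higher, 7 lower) in FS livers. These are 40.9%, 45.5% and 50% of the list, against 41.4%, 39.3% and 33.8% of all genes. ULK1, which starts autophagy, fell from a median of 238 CPM (33.1 to 584) at Baseline to 33.8 (14.6 to 436) at FR8, a log2 fold change of −2.45 ± 0.39. MLXIPL, the carbohydrate response factor ChREBP, fell at all 3 times (−1.38 ± 0.19, −1.06 ± 0.20 and −1.31 ± 0.19), as did FOXO3, a starvation response factor (−0.77 ± 0.32, −1.53 ± 0.34 and −1.21 ± 0.32), though its call at FR2 was lost, at −0.76 to −0.64, when animal 2, 9, 11, 14, 16, 17, 21, 22 or 23 was left out. ACACA and GYS2 fell at FR8 and FR20: ACACA, which makes malonyl-CoA for fatty acid synthesis, by 1.79 ± 0.31 and 1.77 ± 0.30, and GYS2, liver glycogen synthase, by 2.01 ± 0.38 and 1.64 ± 0.34. On the other side PFKFB3, which makes the activator of phosphofructokinase, rose by 2.49 ± 0.39 at FR2, from a median of 0.897 CPM (0.177 to 2.85) to 5.54 (1.18 to 16.6). TBC1D1, a regulator of glucose transporter traffic, rose at all 3 times (1.28 ± 0.23, 0.97 ± 0.23 and 1.04 ± 0.23).

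**Figure D5:**
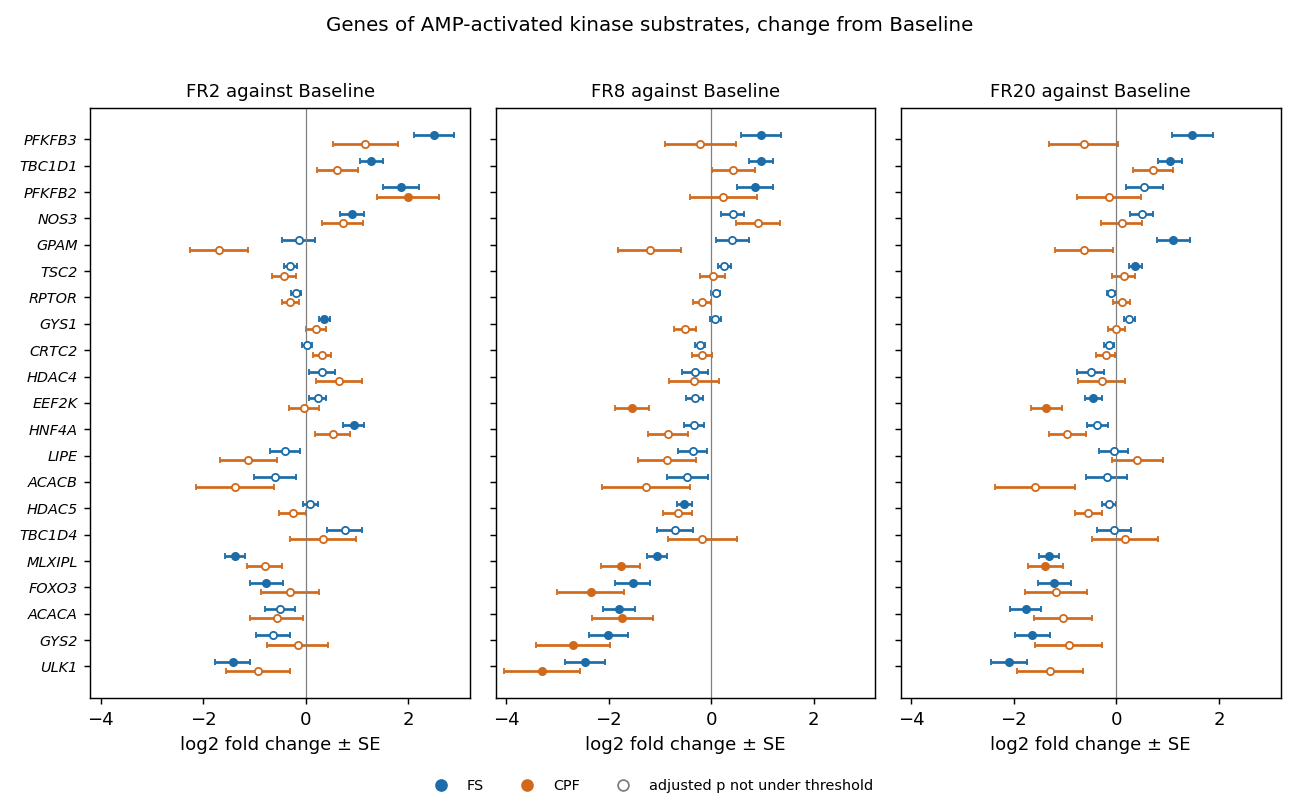
Log2 fold change from Baseline (horizontal axis, bars of 1 SE) of 21 genes that encode substrates of the kinase (vertical axis, ordered by the FS change at FR8), at FR2, FR8 and FR20, in FS (blue) and CPF (orange). Filled points passed the adjusted p threshold of 0.05 and open points did not. ULK1, GYS2, ACACA, FOXO3 and MLXIPL are the lowest of these in both groups at FR8.

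In CPF livers 7 of the 22 passed at FR8, all lower, where 6.99% of all genes were called lower, among them ULK1 (−3.30 ± 0.74), GYS2 (−2.69 ± 0.72), FOXO3 (−2.35 ± 0.66), MLXIPL (−1.76 ± 0.38), ACACA (−1.73 ± 0.60) and EEF2K, the kinase of elongation factor 2 (−1.55 ± 0.33). At FR20 MLXIPL (−1.39 ± 0.34) and EEF2K (−1.37 ± 0.30) passed, and at FR2 only PFKFB2, a relative of PFKFB3, did (1.99 ± 0.60). Whether these changes differ between CPF and FS was not tested for each gene. At FR8 the median over the 22 genes was −0.74 in CPF and −0.32 in FS. Over the 51 pathway genes 4 passed at FR2, 9 at FR8 and 2 at FR20 in CPF, where 3.41%, 13.3% and 0.893% of all genes passed.

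Upstream of the kinase, the sestrin genes SESN1 and SESN2, stress proteins that act toward the kinase, fell at all 3 times in FS. SESN2 had a log2 fold change of −1.89 ± 0.32 at FR2, −2.53 ± 0.34 at FR8 and −2.19 ± 0.32 at FR20, and SESN1 of −1.10 ± 0.20, −1.04 ± 0.21 and −0.90 ± 0.20. MAP3K7, the kinase TAK1, rose at all 3 times (0.37 ± 0.10, 0.55 ± 0.10 and 0.50 ± 0.10). CAMKK2, the other main kinase of the α subunit, fell at FR2 (−0.66 ± 0.15) and had −0.32 ± 0.15 and −0.16 ± 0.14 later. Of the partners of LKB1, CAB39 rose at FR2 (0.49 ± 0.12) and CAB39L at FR8 and FR20 (0.67 ± 0.17 and 0.53 ± 0.17), while STRADA did not pass. CAB39L also rose at FR8 in CPF (0.98 ± 0.33). Of the 9 tested in this list 5, 5 and 4 passed in FS, against 41.4%, 39.3% and 33.8% of all genes.

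Among 7 tested kinases related to AMPK, MARK2, a regulator of microtubules, rose at all 3 times in FS (1.35 ± 0.17, 0.98 ± 0.17 and 0.85 ± 0.17). SIK3, a salt-inducible kinase, fell at all 3 (−0.86 ± 0.30, −1.13 ± 0.31 and −1.01 ± 0.30). The lowest SIK3 library was at 0 CPM at FR2 and at FR8, against medians of 53.4 and 38.0 CPM. With 1 animal left out its log2 fold change ran from −0.99 to −0.69 at FR2 and from −1.21 to −0.95 at FR8. NUAK1 rose at FR2 (2.09 ± 0.37), and SNRK rose at FR2 and FR20 (0.58 and 0.52). SIK1, another salt-inducible kinase, fell at FR8 and FR20 (−1.68 and −1.73). Of these 7 genes 4, 3 and 4 passed in FS. Of the 5 phosphatase genes measured 3, 2 and 1 passed in FS, all higher, where 20.3%, 19.9% and 17.4% of all genes were called higher. Of the 7 enzymes of adenine nucleotides 5, 4 and 2 passed (1, 1 and 0 of them higher). In either direction 41.4%, 39.3% and 33.8% of all genes passed. Among the phosphatases was PPP2CA, a catalytic subunit of PP2A, at 0.74 ± 0.13 at FR2. Among the nucleotide enzymes AMPD3, which deaminates AMP, rose at FR2 and FR8 (1.88 ± 0.26 and 1.40 ± 0.25), and NT5E, which turns AMP outside the cell into adenosine, fell at all 3 times (−0.76 ± 0.25, −1.4 ± 0.27 and −1.05 ± 0.25). In CPF NT5E passed at FR8 (−2.61 ± 0.54) and AMPD3 at FR2 (1.77 ± 0.46).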

How the data were processed

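The authors demultiplexed reads with CASAVA 1.8.2, aligned 1 read per fragment to Sscrofa10.2 with TopHat 1.5.0, sorted with SAMtools and counted reads on pig Ensembl genes with HTSeq; its strand setting is not given in the sources used here. These raw counts were deposited for 92 libraries, of which 88 were used. Members and lists were chosen with earlier results of these data known. Symbols came from a gene name table (11804 identifiers) and the study's pairs of identifier and symbol (700 more).

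Counts were analyzed with edgeR 4.0.16 in R 4.3.3. Genes with a summed CPM of at least 10 were tested with TMM scaling and the quasi-likelihood F test (2-sided). Changes were fitted on 88 libraries with a term per animal and FR2, FR8 and FR20 terms for each fed state. CPF and FS, and animals that died and lived (with a fed state term), were compared within each time point. A gene passed at a Benjamini-Hochberg adjusted p under 0.05 over all genes of the comparison. Libraries of the same animal had residual correlations of 0.22 at the median (89 of 126 pairs over 0.1), against −0.02 between animals, so animal terms were kept, as in the study.

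Changes within an animal were taken from log2 CPM (prior count 2). Depth limits precision for PRKAB2 above all, with 7 counts in its lowest library; no count interval was used, since replicate spread is the error given. Named genes are the members, PRKAG3, the 5 genes most like PRKAG2, and genes of each list. The list genes were taken from those that passed with the 3 highest and 3 lowest log2 fold changes (those past at most times first). Not all genes within that rule are named. Genes of the lists also counted beyond these (STRADA, CSF3R) were named after their values were seen. Alternatives were RLE scaling, a summed CPM of at least 3, filterByExpr, no filter, DESeq2 1.42.0, the likelihood ratio test, the study's added fold threshold, 91 libraries, no animal terms, and leaving out each animal. A gene of the substrate list is counted but not reported here by name. The tests were tried on simulated data with 200 changed genes, drawn without animal effects or displaced time labels. That trial does not show how the tests behave where these are present.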

Additional observations from a re-analysis of the deposited data

Results flagged for a closer look

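The 3 Baseline libraries of FS animals 17, 19 and 21 that were left out for want of albumin held more PRKAG2 than any liver library at Baseline. On CPM of each library's own total, PRKAG2 was at least 91.2 and at most 111 in these 3, against 15.9 to 27.8 in 15 FS liver libraries at Baseline. PRKAB2 was at least 17.8 CPM there, against 0.895 to 8.56, STK11 at least 70.6, against 22.6 to 53.9, and PRKAG3 at least 1.17, against 0 to 0.761. PRKAG1 was 35.4 to 51.3 CPM against 25.2 to 38.7, and PRKAA1 and PRKAB1 lay within or near the liver range. The 4 striated muscle markers measured summed to 25240 CPM or more in these libraries, against at most 86.0 in the 88 used. The part of tissue composition in these values was not tested.

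In CPF livers at FR8, STK11 was 43.6 CPM in animal 7 against 56.7 to 58.3 in the other 3 animals, a gap of 0.886 of the range. PRKAB1 in the same animal differed from its Baseline by 0.02 on the log2 scale, against 0.41 to 0.43 in the others. These are 2 of 42 groups checked, and chance alone marks about 1 group in 20.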

How the results depend on the processing

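Counts of members that passed changed most in the CPF animals, where PRKAB2 at FR2 and PRKAG2, PRKAB2 and PRKAG1 at FR8 lay near the threshold. At FR2 in CPF, 1 member passed, against 2 with DESeq2 and 2 with the likelihood ratio test. At FR8 in CPF, 0 passed, against 1 with filterByExpr (PRKAG2), 3 with DESeq2, 2 with the likelihood ratio test, 1 without the replicate block, that is without animal terms (PRKAB2), and 1 without the animals that stand apart (PRKAG2). From FR8 to FR20 in FS, STK11 passed without those animals, and PRKAG2, chosen on FS libraries, is not counted. Under the study's rule, which also asks for a log2 fold change of at least 1, 0 members passed at FR2 in CPF and 0 from FR2 to FR8 in FS, and of the pathway genes in FS 10, 13 and 14 passed at FR2, FR8 and FR20, against 26, 25 and 23. With the Baseline libraries lacking albumin (91 libraries) 14 pathway genes passed at FR20, the log2 fold changes of PRKAB2 in FS at FR2, FR8 and FR20 were 0.75, 0.71 and 0.61 against 1.51, 1.36 and 1.34, and PFKFB3 at FR8 (−0.28) and PPM1A at FR20 (−0.01) changed sign. Without the animals that stand apart 18.3% of all genes passed at FR8 in CPF and 24.9% from FR8 to FR20 in FS. For the other alternatives the share of all genes that passed was not counted. Whether members or pathway genes shift more than genes in general is thus not known. The causes of these shifts were not tested.

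With 1 animal left out at a time, between 0 and 1 members passed at FR2 in CPF (0 without animal 13 or 18), between 0 and 1 at FR8 (1 without animal 7 or 8) and between 0 and 1 from FR8 to FR20 in FS (1 without animal 9 or 19); each left-out animal was of the fed state tested. The other members' counts did not move. Differences near 0 changed sign, and those of members other than PRKAG2 did so without passing. From FR2 to FR8 in FS, PRKAG2 was 0.03 with no replicate block and −0.15 to 0.01 with 1 animal left out, STK11 was 0.00 with a summed CPM of at least 3 or no filter and −0.01 to 0.07 with 1 animal left out, and PRKAB2 was 0.11 without the animals that stand apart. From FR8 to FR20, PRKAB1 was 0.01 with RLE scaling, DESeq2, 91 libraries or no replicate block, 0.03 with a summed CPM of at least 3 or no filter, 0.00 with filterByExpr and −0.06 to 0.05 with 1 animal left out, and PRKAB2 was 0.01 with a summed CPM of at least 3 or no filter and −0.10 to 0.05 with 1 animal left out. The replicate block changed the call of no other member. Without it 7 of 57 single pathway values no longer passed. With 91 libraries 21 of 57 no longer passed and 2 changed sign, the largest loss among the alternatives other than leaving out 1 animal.

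In the 5 CPF animals, of which 4 have an FR8 library, the standard errors of the members' changes were 1.7 to 2.0 times those in FS (median 1.8).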
